A study of Mus musculus with 10 samples.

Results

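The 37 genes described here encode proteins of striated muscle, the contractile tissue of the heart and of skeletal muscle, and were read in RNA from mouse aortic arch. They were chosen as a fixed list of gene symbols: myosin heavy and light chains, troponins, actins, calcium handling proteins, natriuretic peptides and muscle enzymes. All 37 had at least 1 probe, 43 probes in all, out of 11130 genes with a symbol on the arrays. By where each gene is known to be expressed they fell into 6 classes: 6 heart-restricted genes, 3 atrial genes, 6 genes of heart and slow skeletal fibres, 2 of slow skeletal fibres, 10 of fast skeletal fibres and 10 shared by heart and skeletal muscle.

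The study set mice without MyD88 and without apolipoprotein E (double-null) against mice without apolipoprotein E only (apoE-null). All mice used thus lacked apolipoprotein E, which clears lipoproteins and whose loss leads to atherosclerosis. MyD88 is the adaptor that relays signals from interleukin-1 and most Toll-like receptors. Each of 10 two-colour arrays held RNA of 1 double-null and 1 apoE-null mouse, and 5 such pairs of mice were each read a second time with the dyes exchanged, so n is at most 5 pairs. Pair 1 was a female double-null against a female apoE-null mouse, pairs 2, 3 and 4 were male against male, and in pair 5 the double-null mouse was male and the apoE-null mouse female. A high fat diet for 8 weeks is stated for 8 arrays; the 2 arrays without the statement, 1 each of pairs 2 and 3, held the same mice as their partners. The arches were cleaned of connective tissue before RNA was taken, and the RNA was amplified before labelling. The labels used here name no strain or age.

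Striated muscle contracts when calcium released from the sarcoplasmic reticulum binds troponin C, which lifts the block that troponin I, troponin T and tropomyosin place on the actin filament, so that myosin can pull on it. Heart, slow and fast skeletal fibres build this machinery from different isoforms, and so the isoform names the tissue. The muscle in the wall of the aortic arch is smooth muscle, which lacks sarcomeres. The aorta, of which the arch is a part, begins at the base of the heart, where atrial muscle and the muscle sleeves of the pulmonary veins lie close by. Whether such muscle was carried into these samples was not tested.

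All values below are log2 ratios, double-null over apoE-null, so that 1 is 2-fold higher and -1 is 2-fold lower in the double-null mouse. The value of a pair is the mean of its 2 arrays and needed both of them. A ratio gives no absolute level, and in a bulk sample more cells of a type and more RNA per cell cannot be told apart.

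For the genes that moved together in pair 2, promoter sequences are given first. Windows from 250 bases before to 50 after the transcript start were taken from RefSeq (GRCm38.p6), which held 34 of the 37 genes. They were searched on both strands for 4 muscle or core promoter motifs: M-CAT (CATTCC), the TATA box (TATAAA), the MEF2 box and the CArG box. An M-CAT match was in a window of 14 of the 34 genes, against 14.7% of all 32851 windows, and a TATA match in 11, against 13.6%. MEF2 and CArG boxes were matched in 5 genes each, against 3.2% and 1.6% of all windows. A gene with several windows counted once if any of them matched, so the counts of genes and the shares of windows are not like for like.

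The windows of Myh6 (chr14:54966558-54966857, minus strand), Tnnc1 (chr14:31208062-31208361, plus strand) and Tnnt2 (chr1:135836084-135836383, plus strand, the first of its 2 windows) are shown because Myh6 and Tnnc1 were higher in pair 2 and Tnnt2, another heart troponin, was not. Capitals mark the M-CAT match in each and, in Myh6, also the TATA match. That TATA match began at 2, just after the annotated transcript start and not before it.
Myh6: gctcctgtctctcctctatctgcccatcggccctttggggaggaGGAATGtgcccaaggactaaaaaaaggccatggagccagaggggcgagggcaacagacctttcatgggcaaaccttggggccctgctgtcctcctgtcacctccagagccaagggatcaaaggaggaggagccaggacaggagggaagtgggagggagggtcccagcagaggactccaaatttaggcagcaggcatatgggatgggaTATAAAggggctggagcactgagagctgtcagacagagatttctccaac
Tnnc1: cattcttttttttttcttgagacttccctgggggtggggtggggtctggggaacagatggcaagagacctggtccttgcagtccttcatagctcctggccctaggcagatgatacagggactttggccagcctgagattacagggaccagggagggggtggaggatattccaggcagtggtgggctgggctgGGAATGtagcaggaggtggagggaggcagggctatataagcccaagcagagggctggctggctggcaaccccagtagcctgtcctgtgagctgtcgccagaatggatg
Tnnt2: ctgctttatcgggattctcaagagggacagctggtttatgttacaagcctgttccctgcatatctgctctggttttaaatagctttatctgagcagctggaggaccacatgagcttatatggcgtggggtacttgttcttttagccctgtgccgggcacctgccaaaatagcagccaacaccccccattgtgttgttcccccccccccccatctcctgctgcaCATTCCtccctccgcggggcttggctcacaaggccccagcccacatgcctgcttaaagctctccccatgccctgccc
Counted from the transcript start, the M-CAT match began at -206 in Myh6, at -58 in Tnnc1 and at -27 in Tnnt2, so its presence did not separate the genes by their values in pair 2. The windows of Mb, Tnni3 and Myl4 held none of the 4 motifs as spelled. A match is a stretch of letters and not a measured binding site.

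Most of these genes gave few or no values. Of the 37, 13 were blank on all 10 arrays, 24 had at least 1 value, 14 had at least 1 pair value and 11 had the 3 pair values needed for a test. Blank cells made up 63.3% of the member cells, against 58.6% over all probes and 13.6% over smooth muscle markers. The heart-restricted class was read best, with 40.0% blank, and the fast skeletal class worst, with 77.0% blank. Arrays with double-null RNA in channel 1 carried 16 to 25 member values of 43, and their partner arrays 11 to 15. The sources used here do not say why a cell is blank, so a blank was read neither as absence nor as a low level.

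The 13 genes without any value were spread over the classes. They were the sarcomere gene Mybpc3 and the natriuretic peptide gene Nppb of the heart-restricted class, the atrial light chain gene Myl7 and the atrial peptide gene Nppa, and Ankrd1, a stress-induced gene of heart and muscle. The slow troponin I gene Tnni1 was blank as well. So were the fast fibre genes Tnnt3, Myh1, Myh4, Mylpf and Atp2a1, and the shared genes Ttn, which encodes titin, and Csrp3, a Z-disc protein.

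**Figure D1:**
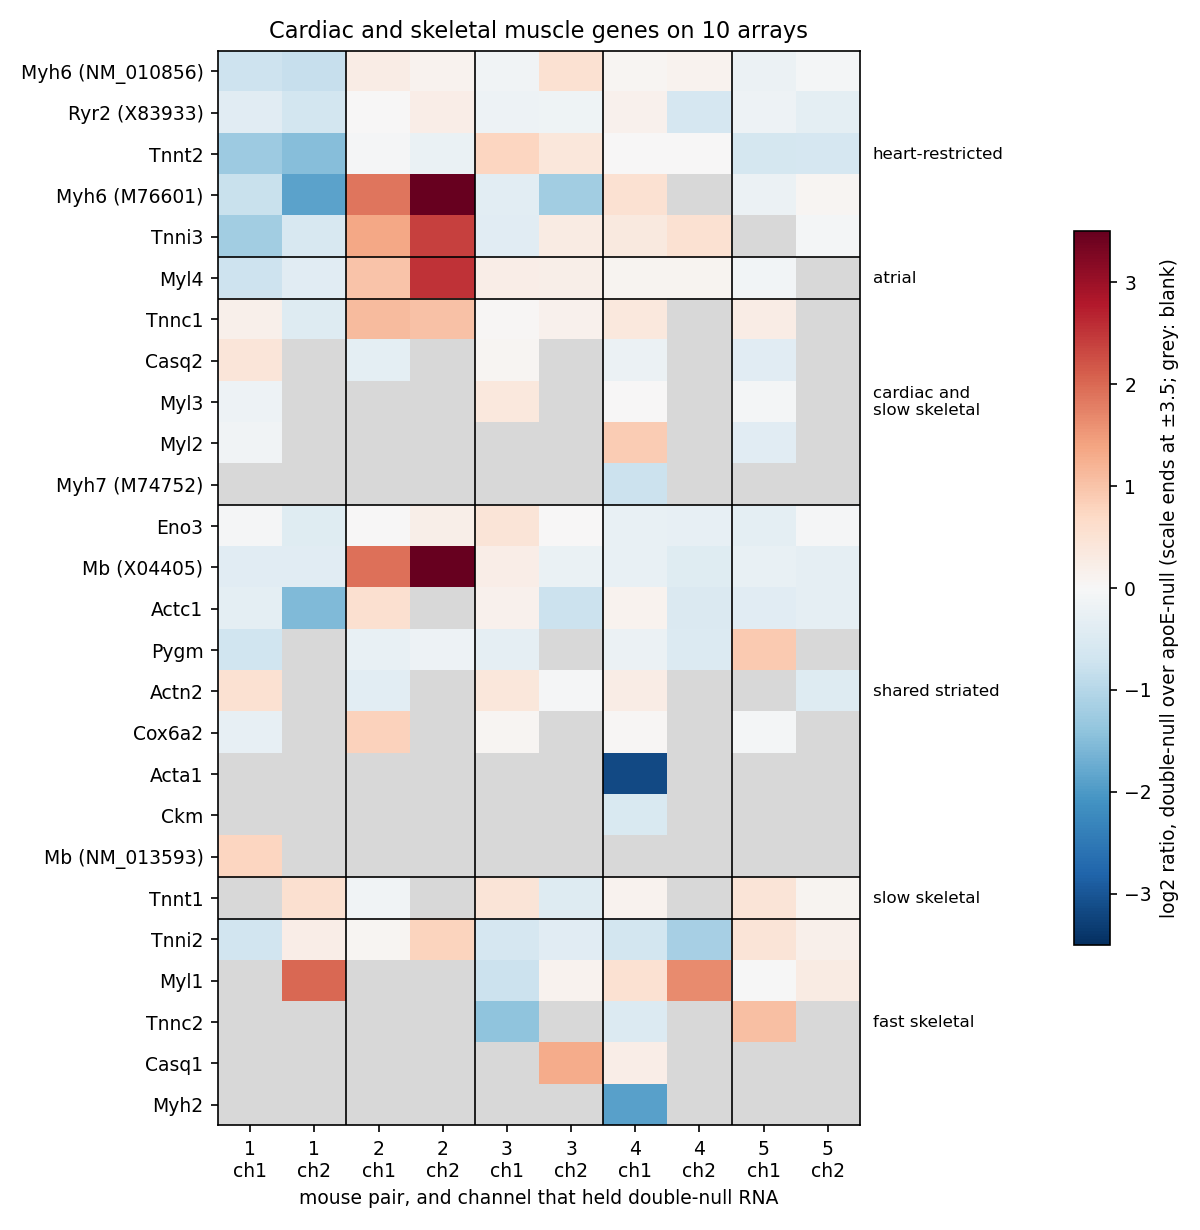
Log2 ratio (double-null over apoE-null) of the 26 member probes with any value on the 10 arrays, grouped by gene class; columns are the mouse pairs 1 to 5, with double-null RNA in channel 1 (left) and channel 2 (right). Grey cells are blank, and the colours end at 3.5, which Myh6 (5.16) and Mb (3.54) exceed on the second array of pair 2. Both columns of pair 2 are red, at 0.99 or above, in Myh6 (M76601), Mb, Tnni3, Myl4 and Tnnc1. Single arrays of Myl1, Casq1 and Tnnc2 in other pairs reach that level as well.

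In pair 2 several heart genes were higher in the double-null arch, while no member was lower past 2-fold. The genes at least 2-fold higher with both arrays above 0 were Myh6, Mb, Tnni3, Myl4 and Tnnc1. That is 5 of the 10 members with a value in this pair, against 1.18% of all 3733 genes with one, and 0 members were 2-fold lower, against 1.9% of all genes. The median of the 10 members was 0.74, with 8 of 10 above 0, against -0.03 for all genes. It was 0.06 over the 15 members read on the array with double-null RNA in channel 1, 0.41 with 1 array accepted and 0.30 with the Myh6 probe NM_010856 alone.

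Among the heart-restricted genes, Myh6 encodes the alpha myosin heavy chain, the main motor of the adult mouse heart. Its probe M76601 read 1.88 and 5.16 on the 2 arrays of pair 2. Elsewhere it read -0.78 and -1.87 in pair 1, -0.38 and -1.23 in pair 3, -0.21 and 0.07 in pair 5, and 0.53 on the 1 array of pair 4 with a value. The pair 2 mean of 3.52 is an 11.5-fold higher level in the double-null arch, with arrays 1.64 on either side of it, and no array of another pair reached the lower of them.

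A second Myh6 probe, NM_010856, did not share this. It read 0.25 and 0.11 in pair 2, against -0.72 and -0.81 in pair 1, -0.12 and 0.54 in pair 3, 0.07 and 0.12 in pair 4, and -0.20 and -0.06 in pair 5. Both probes were lowest in pair 1, but only M76601 stood high in pair 2. Averaged over both probes, Myh6 was 1.85 in pair 2. Probe sequences were not used here, so which of the probes reports the transcript better was not tested.

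Tnni3 encodes cardiac troponin I, the inhibitory subunit found in adult heart and not in skeletal fibres. It read 1.36 and 2.39 in pair 2, a 3.67-fold higher level in the double-null arch. The other pairs gave -1.22 and -0.55 (pair 1), -0.40 and 0.30 (pair 3), 0.34 and 0.53 (pair 4), and -0.08 on the single array of pair 5 with a value. Pair 2 was above every other array of this probe.

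Tnnt2, the cardiac subunit that anchors troponin to tropomyosin, behaved otherwise. Its values in pair 2 were -0.03 and -0.24, so it was not higher there. It was lowest in pair 1, at -1.28 and -1.48, and highest in pair 3, at 0.75 and 0.39. Pair 4 gave 0.01 and -0.00, and pair 5 gave -0.62 and -0.60. Ryr2, the calcium release channel of heart muscle, was past 2-fold in no pair. Its probe X83933 had pair values of -0.51, 0.13, -0.17, -0.23 and -0.26 in pairs 1 to 5, and its other probe was blank.

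The 1 atrial gene with values followed Tnni3. Myl4 encodes the essential myosin light chain of the atria, which is also made in embryonic skeletal muscle. It read 0.99 and 2.53 in pair 2, 3.38-fold higher in the double-null arch on average. In the other pairs it read -0.73 and -0.40 (pair 1), 0.23 and 0.21 (pair 3), 0.10 and 0.10 (pair 4), and -0.10 on 1 array of pair 5.

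Tnnc1 encodes the troponin C of heart and slow fibres. Its arrays in pair 2 read 1.11 and 1.03, which was 2.1-fold higher in the double-null arch, and those of pairs 1 and 3 read 0.17 and -0.45, and 0.03 and 0.16. Pairs 4 and 5 had 1 value each, 0.38 and 0.25. The arrays of pair 2 lay 0.04 on either side of their mean and did not overlap the rest.

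The other genes of this class were too sparse to follow. Casq2, the calcium store protein of heart and slow fibres, had a value on the first array of each pair, between -0.41 and 0.42, with -0.33 in pair 2. The ventricular light chain genes Myl2 and Myl3 and the slow myosin gene Myh7 had 3, 4 and 1 values, none of them in pair 2. Myl7 and Nppa were blank as well, so Myl4 was the only atrial or ventricular isoform among the 37 read on both arrays of pair 2.

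Of the genes shared by heart and skeletal muscle, Mb, which encodes the oxygen store myoglobin, stood apart most clearly. Its probe X04405 read 1.94 and 3.54 in pair 2, a 6.69-fold higher level in the double-null arch. The remaining 8 arrays lay between -0.43 and 0.23, and the pair values were -0.40, -0.01, -0.35 and -0.30 in pairs 1, 3, 4 and 5. A second Mb probe had a single value, 0.75 on the first array of pair 1.

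The other shared genes with both arrays of pair 2, Eno3 and Pygm, lay near 0 there. Of those read on 1 array of pair 2, Cox6a2 and Actc1 were above 0 and Actn2 was below it, at -0.38. Eno3, the muscle enolase, had pair values of -0.22, 0.10, 0.24, -0.29 and -0.19 in pairs 1 to 5. Pygm, the muscle glycogen phosphorylase, was at -0.23 in pair 2 and -0.34 in pair 4, and Actn2, the Z-disc alpha-actinin, at 0.17 in pair 3, its only pair value. Cox6a2, the muscle form of a cytochrome oxidase subunit, had values on the first array of each pair alone: 0.81 in pair 2 and between -0.30 and 0.07 in the others.

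Actc1, the cardiac alpha-actin, had no second array in pair 2, where its 1 value was 0.55. Its values were -0.33 and -1.54 in pair 1, 0.15 and -0.75 in pair 3, 0.11 and -0.51 in pair 4, and -0.40 and -0.32 in pair 5. In pairs 1, 3 and 4 its array with double-null RNA in channel 2 was the lower one, and with channel 1 arrays alone its mean was 0.02. Its 4 pair values were all below 0.

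**Figure D2:**
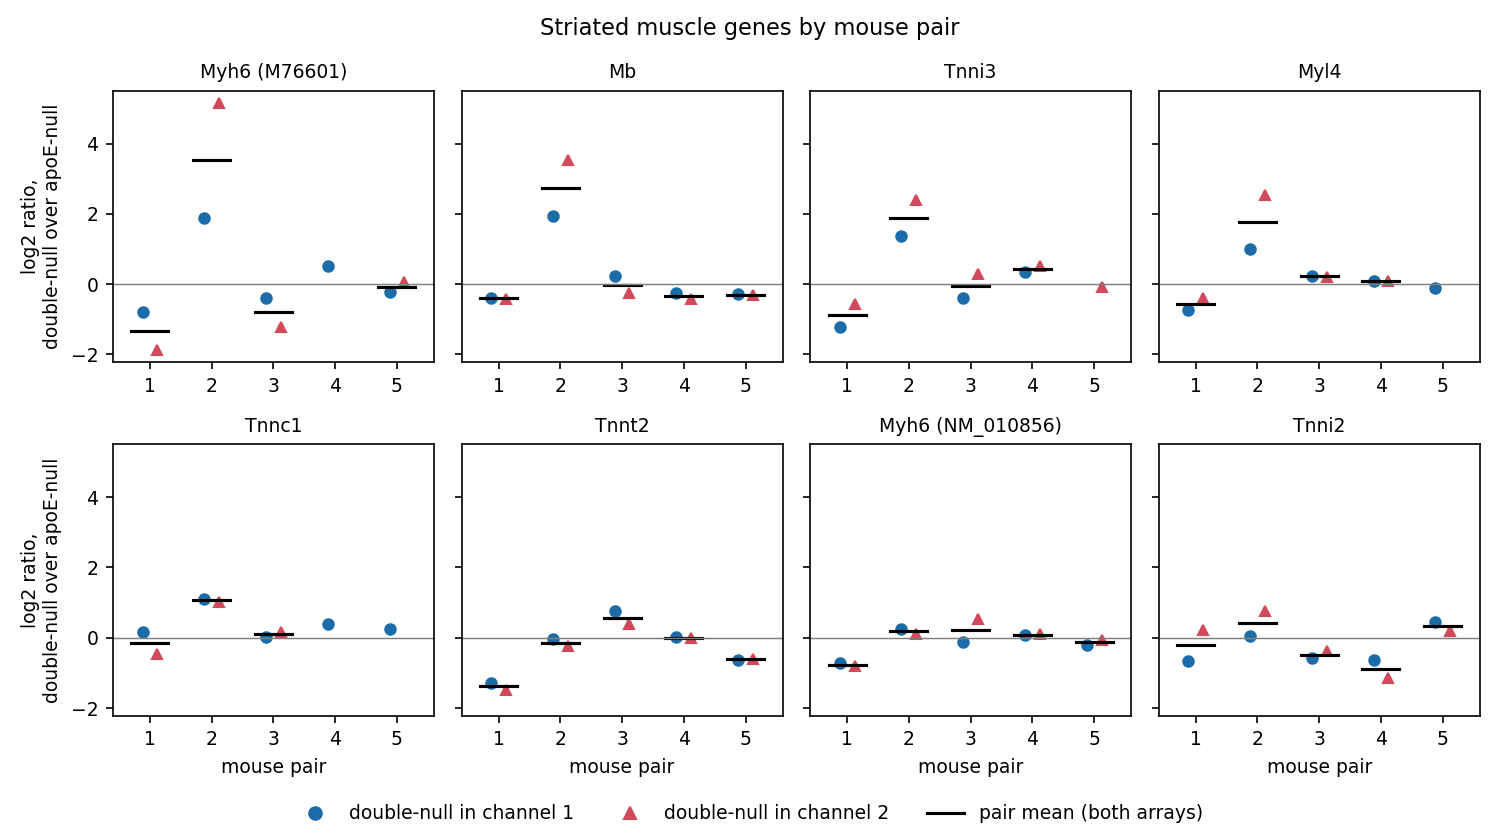
Log2 ratio (double-null over apoE-null) in the 5 mouse pairs for 7 genes, with double-null RNA in channel 1 (circles) or channel 2 (triangles) and the pair mean as a line. The first 5 panels have both arrays of pair 2 above the arrays of the other pairs, with means from 1.07 (Tnnc1) to 3.52 (Myh6, M76601); Tnnt2, the second Myh6 probe and Tnni2 do not.

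Too few genes of skeletal fibres were read in pair 2 to show whether they shared the pattern. Of 10 fast fibre probes, 1 had a value on each array of pair 2, and it was the fast troponin I gene Tnni2 on both, with 0.06 and 0.77. Tnni2 read -0.67 and 0.23 in pair 1, -0.58 and -0.39 in pair 3, -0.64 and -1.15 in pair 4, and 0.46 and 0.19 in pair 5. Its pair 2 mean of 0.41 differs little from 0.33 in pair 5. Tnnt1, the slow troponin T, had -0.11 on 1 array of pair 2, with pair values of -0.00 in pair 3 and 0.27 in pair 5.

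In pair 4 the skeletal genes pointed both ways. Acta1, the skeletal alpha-actin, had its only value of the 10 arrays there, -3.15 on the array with double-null RNA in channel 1. The same array held the only values of the fast myosin gene Myh2 (-1.89), of the muscle creatine kinase gene Ckm (-0.54) and of Myh7 (-0.74). None of these 4 could be checked on the partner array, which was blank for each.

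With both arrays read, Tnni2 was lower and Myl1 higher in the double-null arch of pair 4. Myl1, the fast skeletal myosin light chain, read 0.54 and 1.66 there, a 2.14-fold higher level, against -0.74 and 0.11 in pair 3 and -0.02 and 0.29 in pair 5. It also read 2.01 on 1 array of pair 1. Tnnc2, the fast troponin C, had -1.42, -0.48 and 1.06 on 1 array each of pairs 3, 4 and 5, and Casq1, the calcium store protein of fast fibres, had 1.30 in pair 3 and 0.23 in pair 4.

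Outside pair 2 few members were past 2-fold. Pair 1 had 0 of 10 members higher, against 6.36% of all genes, and 2 lower, Myh6 and Tnnt2, against 4.15%. Pair 3 had 0 of 13 members higher (0.563% of all genes) and 0 lower (1.06%). Pair 4 had 1 of 11 higher, Myl1 (1.27% of all genes), and 0 lower (0.531%). Pair 5 had 0 of 9 higher (1.65%) and 0 lower (1.37%).

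In pair 1 all 10 members with a value were below 0, with a median of -0.54, against -0.08 for all genes. Tnnt2 was 2.6-fold and Myh6 (M76601) 2.51-fold lower in the double-null arch, Actc1 1.91-fold and Tnni3 1.85-fold. The Myh6 probe NM_010856 was 1.7-fold lower, short of the 2-fold limit. The heart-restricted genes had medians of -0.97 in pair 1, 0.99 in pair 2, -0.11 in pair 3, 0.05 in pair 4 and -0.26 in pair 5. Pair 1 was thus the lowest and pair 2 the highest for this class. The pair 2 median rests on Myh6: it was 0.15 with the probe NM_010856 alone.

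Over the 5 pairs together no member passed the test. The limma fit on pair means against 0 called 0 of 12 member probes and 38 of all 4866 probes tested (0.781%) at an adjusted p under 0.05, and 1 member probe had an unadjusted p under 0.05. That one was Actc1, with a mean of -0.45 ± 0.33 (SD, n = 4 pairs, adjusted p = 0.422). Mb averaged 0.34 ± 1.35 (n = 5, adjusted p = 0.766), Myh6 (M76601) 0.33 ± 2.19 (n = 4, adjusted p = 0.871), Tnni3 0.34 ± 1.16 (n = 4, adjusted p = 0.745) and Myl4 0.38 ± 0.98 (n = 4, adjusted p = 0.693). The other 7 member probes had means from -0.31 (Tnnt2) to 0.34 (Tnnc1) and adjusted p from 0.573 (Ryr2) to 0.855 (the second Myh6 probe).

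These positive means came from pair 2. Without it, Mb averaged -0.26, Myh6 (M76601) -0.73, Tnni3 -0.17 and Myl4 -0.08. For comparison, Myd88 itself was below 0 on all 10 arrays, from -1.20 to -0.46, with a mean of -0.90 ± 0.22 (n = 5, adjusted p = 0.0248 by limma). The call of Myd88, like that of all other probes, was lost when pair 4 was left out, where 0 probes passed.

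Each pair was then set against the mean of the other pairs in a limma fit over all probes, run alike for the 5 pairs. The lone pair is assumed in it to vary as the others do. No probe passed an adjusted p of 0.05 in any of the 5 fits (0% of 4387, 4011, 4370, 4357 and 4287 probes tested for pairs 1 to 5), members included. Unadjusted p-values under 0.05 were reached by 3 of 10 member probes in pair 1, 4 of 9 in pair 2, and 0 of 10, 0 of 9 and 0 of 8 in pairs 3, 4 and 5, against 597, 220, 130, 64 and 188 of all probes.

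In the fit for pair 2, all 9 member probes tested were above the other pairs, and 4 of them were among the 6 highest of 4011 probes. Myh6 (M76601) ranked 1, at 4.25 ± 0.51 (SE, adjusted p = 0.383 by limma). Mb ranked 3, at 3.00 ± 0.27 (adjusted p = 0.0775), the lowest adjusted p of any member in the 5 fits. Tnni3 ranked 5, at 2.05 ± 0.54, and Myl4 ranked 6, at 1.84 ± 0.40 (both adjusted p = 0.803). Tnnc1 was not tested, since it had values in too few of the other pairs. The other pairs include pair 1, where all 10 members with a value were below 0. Without pair 1, Tnnt2 was below the others, at -0.12, and the second Myh6 probe was at 0.12. Myh6 (M76601), Mb, Tnni3 and Myl4 were then at 3.96, 2.96, 1.69 and 1.60.

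The remaining 5 ranked lower, with Tnni2 the highest of them and still in the upper tail. Tnni2 ranked 126 at 0.73, Ryr2 568 at 0.42, the second Myh6 probe 823 at 0.33, Tnnt2 1158 at 0.22 and Eno3 1169 at 0.21. Over 10 settings of this fit the difference for Mb lay between 2.12 and 3.89, with an adjusted p from 0.0155, on channel 2 arrays alone, to 0.957, without pair 4. That for Myh6 (M76601) lay between 2.09 and 6.17, for Tnni3 between 1.69 and 2.35 and for Myl4 between 1.11 and 2.56.

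Ranks 2 and 4 were taken by genes outside the list. Sqor, a mitochondrial sulfide oxidase, read 0.13 and 6.64 on the 2 arrays of pair 2, and 6.64 is the limit of the deposited ratios, so it rests on 1 array. Prg4, the lubricin of joints and serous surfaces, read 0.98 and 1.11 in pair 2, against -2.69 and -3.21 in pair 1.

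**Figure D3:**
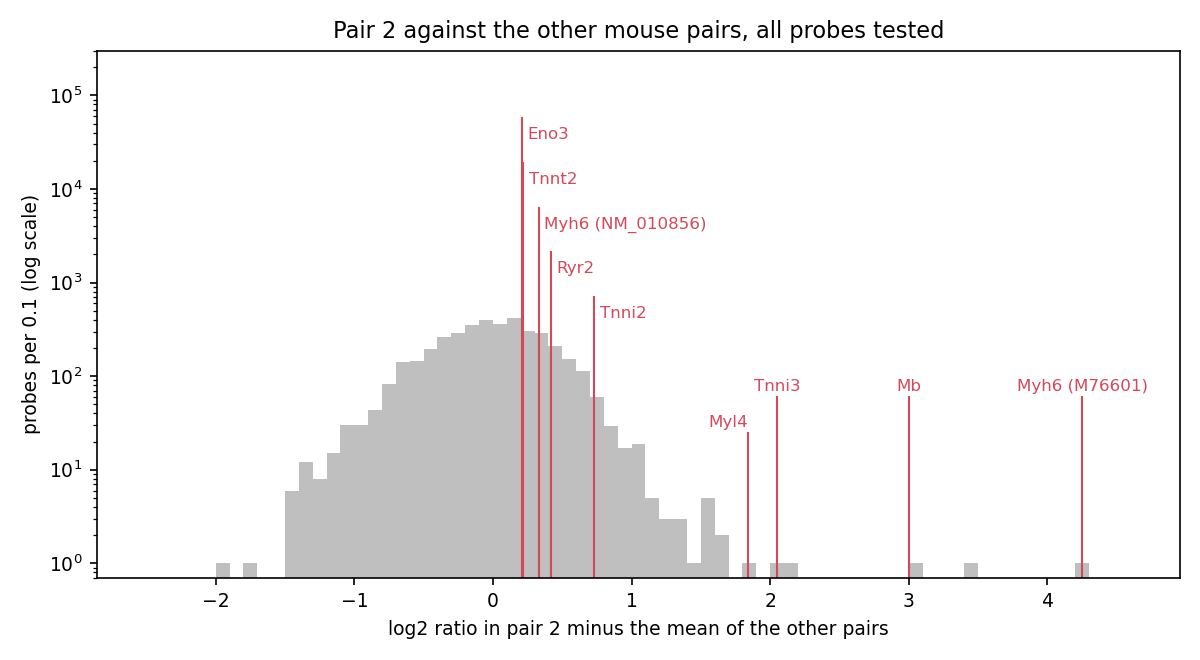
Distribution over 4011 probes of the log2 ratio (double-null over apoE-null) in pair 2 minus the mean of the other pairs, in bins of 0.1 with a log count axis; red lines mark the 9 member probes tested. Myh6 (M76601), Mb, Tnni3 and Myl4 lie at 1.84 to 4.25, past nearly all probes, and the other 5 lie at 0.21 to 0.73.

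The fit for pair 1 gave the reverse for heart genes, also short of the threshold. All 10 member probes tested were below the other pairs, though Tnni2, at -0.06, lay at the median of all probes (-0.07). The 3 with unadjusted p-values under 0.05 were Tnnt2, at -1.34 ± 0.42 (SE), the second Myh6 probe, at -0.86 ± 0.28, and Tnni3, at -1.64 ± 0.68, with adjusted p of 0.254, 0.254 and 0.356 by limma. The other pairs include pair 2, and without it these differences were -1.37, -0.83 and -1.08. That of Myh6 (M76601) was -2.21 with pair 2 among the others and -0.89 without it. Without pair 2, Mb moved from -0.92 to -0.18 and Tnni2 from -0.06 to 0.14, so not all 10 were then below the others.

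Markers of other cell types were read in the same arrays. In pair 2 none of the smooth muscle markers was past 2-fold in either direction, and their median was -0.29, with 6 of 8 below 0. The brown adipocyte median was -0.35 over 3 genes, from -0.46 to 0.18, and the white adipocyte median -0.31 over 7 genes, from -1.23 to 0.56. Ucp1, the uncoupling protein that defines brown fat, read -0.64 and -0.29, and Adipoq, the fat cell hormone adiponectin, 0.34 and 0.39. The 3 lists thus had medians below 0 in the pair in which the heart genes were highest.

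Pair 1 differed. There the brown adipocyte median was 1.31 over 4 genes, from 0.36 to 2.51, and the white adipocyte median 1.80 over 7 genes, from -0.39 to 2.40, while the smooth muscle median was -0.50, with 8 of 9 below 0. The part of these cells in the low values of the heart genes was not tested. Pair 4 had adipocyte medians of 0.94 and 1.09 as well, with heart-restricted genes at 0.05.

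Further genes of the same tissues were read beyond the 37. Of 20 further heart genes, 17 had a probe, 7 had a value, and 2 were tested, with 0 called. Over all 4299 genes tested, 27 were called higher and 8 lower. In pair 2 Sln, which encodes the atrial calcium pump inhibitor sarcolipin, was at 0.00 and Pln, its ventricular relative phospholamban, at 0.25. Neither was past 2-fold there. Corin, which processes the atrial peptide, had both arrays in pair 3 alone, with a mean of 0.63.

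Of 20 further skeletal genes, 15 had a probe and 6 a value. Myog, a master regulator of muscle fibre formation, was tested and not called, with pair values of -0.39, 0.02, 0.08, -0.00 and -0.58 in pairs 1 to 5. Chrna1, the muscle acetylcholine receptor subunit, had both arrays in pair 5 alone, with a mean of -0.27. Myog was thus the 1 gene of this list read on both arrays of pair 2.

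Among 26 further genes shared by striated muscles, 9 were tested and 0 called, and 3 were past 2-fold, in pairs 1 and 4. These were 3 of 9 genes higher in each of these pairs, against 6.36% and 1.27% of all genes. Fabp3, a fatty acid carrier of heart, had pair values of 1.94, 0.20, 0.05, 1.73 and 0.05 in pairs 1 to 5. Cox7a1 and Cox8b encode muscle forms of cytochrome oxidase subunits, and were at 2.68 and 2.37 in pair 1 and at 1.48 and 1.52 in pair 4. All 3 are also made in brown fat.

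They were highest in pairs 1 and 4, as were Ucp1 (2.51 in pair 1 and 2.04 in pair 4) and Cidea, a lipid droplet protein of brown fat (2.23 and 1.39), whereas Myh6 and Mb were highest in pair 2. In pair 2 they were at 0.39 (Cox7a1), 0.93 (Cox8b) and 0.20 (Fabp3). Of the 9 genes of the list with a value in pair 2, 5 were above 0 and 0 were past 2-fold, with Tpm1, a tropomyosin, lowest at -0.65.

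**Figure D4:**
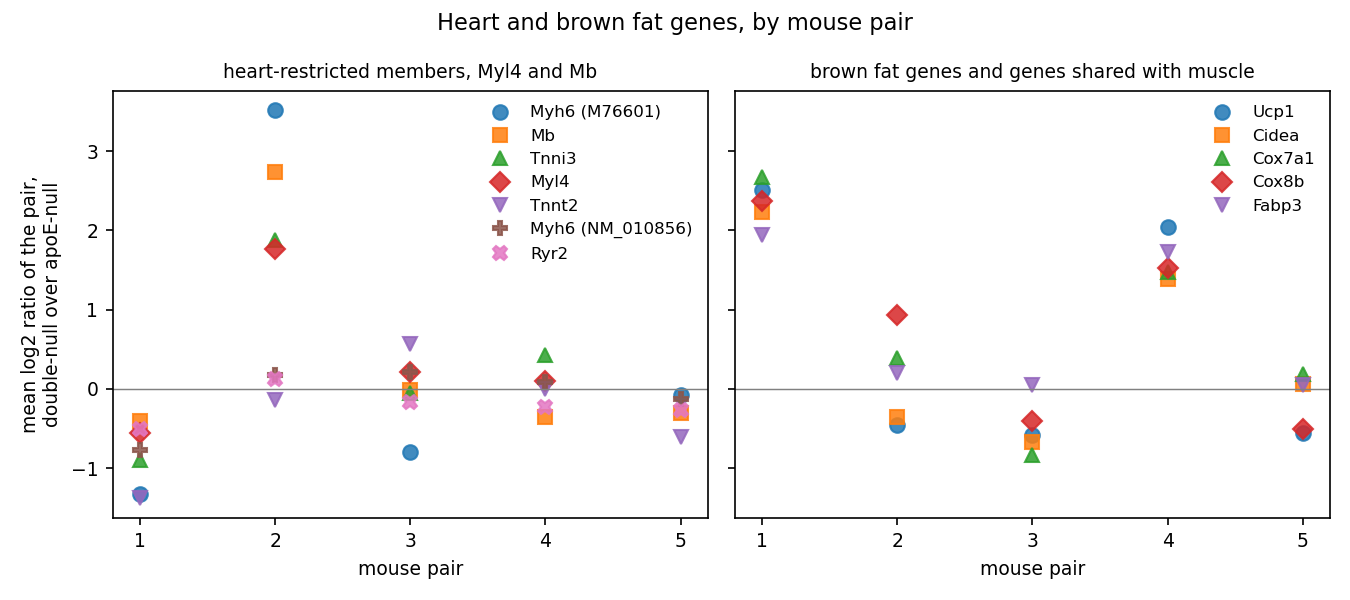
Mean log2 ratio (double-null over apoE-null) of each mouse pair for the heart-restricted members with values, Myl4 and Mb (left) and for the brown fat genes Ucp1 and Cidea with 3 genes shared by muscle and brown fat (right). Myh6 (M76601), Mb, Tnni3 and Myl4 stand highest in pair 2, at 1.76 to 3.52, while Tnnt2, Ryr2 and the second Myh6 probe lie there at -0.14 to 0.18. The genes on the right are highest in pairs 1 and 4, at 1.39 to 2.68; pairs without both arrays have no symbol.

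Genes with a pattern like that of the heart-restricted class were ranked by Pearson's r over the 10 arrays with the class median, among 907 genes read on all arrays and spread over at least 1 between pairs. Cpne8, a copine, came first, with r = 0.94 and pair values of -0.87, 0.70, -0.16, -0.12 and -0.56. Syncrip, an RNA-binding protein, had r = 0.91. Prg4, Sorcs2 and Sgk1, the serum and glucocorticoid kinase, each had r = 0.89, and Sgk1 was at -1.17 in pair 1 and 0.54 in pair 2. Mthfd2, Aprt, Ier3, Serinc3 and Snd1 followed, with r from 0.85 to 0.87. The 10 arrays are 5 pairs read in both orientations, so these correlations describe the pairs and carry no test, and none of the 10 genes but Prg4 was past 2-fold in pair 2.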

How the data were processed

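Aortic arch RNA was read on 10 two-colour arrays. It was amplified by MessageAmp, labelled with Micromax ASAP, scanned on a GenePix 4000B (GenePix Pro 3.0) and taken through GeneSpring, per the labels. The deposited values are log2 ratios that the authors' titles give as apoE-null over double-null, and signs were turned. No normalization is named by the sources used here; the values were kept as they are, since array medians lay between -0.094 and 0.007. An array had 4581 to 7057 values for 13872 probes. The lowest deposited log2 value, -6.64, is a ratio of 0.01 and occurred 10 times on 5 arrays. Scanner intensities were not used here, so the number of arrays limits the precision. Partner arrays of a pair correlated across probes at r = 0.56, 0.31, 0.04, 0.19 and 0.46 in pairs 1 to 5. Xist was low on both arrays of pair 5 (-3.47 and -3.23 for 1 probe), where the double-null mouse was male. In pair 1 the partner arrays give the mouse numbers with exchanged genotypes, and the genotype labels were followed.

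Both arrays of a pair were taken to hold the same extracts and were averaged to 1 replicate. For pair 1 the mouse numbers in the labels do not settle this. Mice are numbered separately in the labels, and p-values reflect the spread over pairs of mice. Probes with 3 pair values were tested in R 4.3.3 by limma 3.58.1, two-sided (lmFit, then eBayes), with Benjamini-Hochberg adjustment over all probes and a threshold of 0.05. The same fit with an indicator for 1 pair needed values in that pair and in 3 others. A dye effect was found in 0 of 12 member probes and 231 of 4866 in all. Fits were first tested on simulated data. Gene symbols of the platform annotation were updated through Entrez identifiers; 12143 probes had 1 symbol, 49 several and 1680 none, and 12009 matched. For counts past 2-fold and list medians, probes of a gene were averaged.

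The members and the gene lists were chosen with earlier results of these data known. Arrays or pair values are given for members past 1 (log2) in any pair, up to 6 genes of each other list were named by largest pair value, and 10 genes by likeness; Sqor, Myd88, Xist and the sparsely read members were named besides. Alternatives were leaving out each pair, an array-level fit with the pair as a random block, single dye orientations, centring, scaling, 1 array accepted, probes with 5 pair values, floor values removed, the male pairs, other empirical Bayes settings, averaged probes, and limits of 1.5-fold and 3-fold. Each Myh6 probe alone was added after seeing the data.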

Additional observations from a re-analysis of the deposited data

Results flagged for a closer look

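Mb (probe X04405) had one pair value far from the others. Pair 2 stood at 2.74, while pairs 1, 3, 4 and 5 lay between -0.40 and -0.01, so that the gap below pair 2 took up 0.874 of the whole range. Of 15 sets of 4 or 5 pair values looked at in this way this was the 1 that stood out. The rule flags about 1 set in 20 by chance, so 1 of 15 is close to what chance gives. The sets also share the same mouse pairs.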

How the results depend on the processing

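The call of 0 member probes over all pairs held under every alternative run, leaving out each pair included. In the fit of pair 2 against the others, the difference for Mb was 2.12 from channel 1 arrays alone and 3.89 from channel 2 arrays alone. Its other settings lay between these. The heart-restricted median in pair 2 moved to 0.15 with the Myh6 probe NM_010856 alone. Counts of members past the fold limit moved as follows. The 5 of 10 members higher in pair 2 became 4 of 10 with scaling (0.696% of all genes). Channel 1 arrays alone gave 4 of 15 there (2.42%), and a 3-fold limit 4 of 10 (0.188%). The probe NM_010856 alone also gave 4 of 10 in pair 2, and accepting 1 array gave 5 of 15 (2.72%). Channel 2 arrays alone gave 3 of 12 lower in pair 1 (6.79%). Accepting 1 array gave 1 higher in each of pairs 1, 3 and 5 (7.86%, 2.07% and 3% of all genes), 1 lower in pair 3 (1.61%) and 2 lower in pair 4 (1.06%). Channel 2 arrays alone gave 1 higher in pairs 1 (9.68%) and 3 (3.65%) and 1 lower in pair 4 (1.75%), and channel 1 arrays alone gave 1 higher in pair 5 (3.27%), 0 higher in pair 4 (1.66%), 1 lower in pair 3 (2.27%) and 2 lower in pair 4 (1.56%). Centring, scaling or the probe NM_010856 alone left 1 lower in pair 1 (3.31%, 1.45% and 4.13%), and scaling gave 1 lower in pair 4 (1.13%). A 1.5-fold limit gave 4 of 10 lower in pair 1 (14.5% of all genes), 1 of 11 in pair 4 (4.52%) and 1 of 9 in pair 5 (4.74%), and a 3-fold limit 0 lower in pair 1 (0.749%) and 0 higher in pair 4 (0.254%). Several means, none of them called, changed sign. Leaving out 1 pair gave ranges of -0.26 to 0.52 for Mb, -0.73 to 0.88 for Myh6 (M76601), -0.16 to 0.09 for Myh6 (NM_010856), -0.17 to 0.75 for Tnni3, -0.08 to 0.69 for Myl4 and -0.32 to 0.01 for Tnni2, with pair 2 deciding the sign of Mb, Myh6 (M76601), Tnni3 and Myl4, pair 1 that of Myh6 (NM_010856) and pair 4 that of Tnni2. The male pairs alone gave 0.02 for Eno3, 0.16 for Myh6 (NM_010856) and 0.14 for Tnnt2, and channel 1 arrays alone 0.02 for Actc1 and -0.07 for Myl1. Beyond each setting's own construction, the cause was not tested. Trend and robust empirical Bayes called 0 of all 4866 probes, against 38. Leaving out 1 pair left 0 (without pair 4) to 25 (without pair 5) of all probes called. Blank cells limit the reading, since 26 of 43 member probes had any value.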

Other observations

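Relatives of the muscle isoforms that other cells use were read well, with 15 genes tested and 0 called by limma (1 at an unadjusted p under 0.05). Of all 4299 genes tested, 27 were called higher and 8 lower, and 406 had an unadjusted p under 0.05. Pygl, the liver glycogen phosphorylase, was at 1.97 in pair 1 and -1.30 in pair 3. Cox6a1, the general form of the oxidase subunit, was at 1.32 in pair 1, and Cox7a2 and the nucleotide carrier Slc25a5 were at 0.81 and 0.80. The alpha-actinins of non-muscle cells were low in pairs 1 and 2: Actn1 had -1.28 and -0.72 and Actn4 -0.92 and -1.02. In pair 2, where Myh6 and Mb were high, these 5 genes with a value ran from -1.02 to 0.40.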
